A study of Rattus norvegicus with 12 samples.

Results

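rno-miR-204 and rno-miR-211 are 2 of the 677 rat miRNAs listed for soleus muscle of rat offspring, and they were followed together with the miRNAs whose signals tracked miR-204 most closely from rat to rat. Both were selected by name, without their star strands. miR-204 was chosen with its difference between the diets already known, because it had one of the smallest unadjusted p-values in these same arrays. Its companions were chosen by their Pearson correlation with it among the 161 other miRNAs detected on all 12 arrays. The diet difference of miR-204 and these correlations are therefore given as descriptions, with no p-value.

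The rats were male Sprague-Dawley offspring, aged 1 year, and all of them were kept on standard chow after weaning. The dams of 6 rats (control) had a control diet and those of the other 6 (high fat) a high fat diet, which the labels place in pregnancy and lactation and the study's methods also before mating. Total RNA of each soleus, a postural muscle made mostly of slow fibres, was hybridised to 1 one-colour Agilent array, with 3 rats of each group on each of 2 slides. The labels name each rat by a letter and a number but do not say which rats share a dam or litter, so the spread between rats may be narrower than that between litters.

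A miRNA is a short RNA that guides a silencing complex to messenger RNAs, mainly by pairing through its seed, bases 2 to 8 counted from the 5′ end. miR-204 and miR-211 are the main strands of hairpins that lie in introns of genes for ion channels of the melastatin TRP family. They are best known from the retinal pigment epithelium and from pigment cells, and miR-204 also from pancreatic beta cells and bone.

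The mature sequences of both members are shown because they make up a seed family of their own and are nearly identical. All sequences here are from RefSeq for rat build GRCr8, with the seed in capitals.
rno-miR-204: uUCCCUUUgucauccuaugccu
rno-miR-211: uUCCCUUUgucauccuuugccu
The sequences have 22 bases each and differ by 1 substitution, A17U from miR-204 to miR-211, outside the seed. Among the 693 mature rat miRNA names of the RefSeq table, the seed UCCCUUU belongs to these 2 only. The gene Mir204 lies at chr1:229743461-229743570 on the plus strand, inside Trpm3, and Mir211 lies at chr1:127189328-127189433 on the plus strand, inside Trpm1. The other strand of each hairpin, which the array lists with a star, carries a different seed.
rno-miR-204*: gCUGGGAAggcaaagggacguu
rno-miR-211*: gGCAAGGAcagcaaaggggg

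The companions fall into a few seed families, and their sequences are shown to let these be read off. The array's older names were assigned to RefSeq arms by hand. miR-497 and miR-195 share the seed AGCAGCA of the miR-15/16 family, known for restraining the cell cycle, and their hairpins lie 255 bases apart on chromosome 10.
rno-miR-497: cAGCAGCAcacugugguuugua
rno-miR-195: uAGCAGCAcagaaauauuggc
let-7a and let-7c, members of the let-7 family of developmental timing regulators, differ by A19G alone, and no test here shows how far their probes share signal.
rno-let-7a: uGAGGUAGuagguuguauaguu
rno-let-7c: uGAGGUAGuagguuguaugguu
The other 4 miRNAs among the 8 with the highest correlation each have a different seed, and none of these seeds is among those shown above. miR-125b-5p belongs to the lin-4 family, miR-152 to the miR-148 family, miR-196b is encoded among the Hox genes, and miR-140* comes from the miR-140 hairpin, best known from cartilage.
rno-miR-125b-5p: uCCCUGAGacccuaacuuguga
rno-miR-152: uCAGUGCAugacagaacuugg
rno-miR-196b: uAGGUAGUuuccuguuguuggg
rno-miR-140*: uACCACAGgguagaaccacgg
Of the 4 with the lowest correlation, miR-1224 is known as a mirtron, excised by splicing, miR-675* comes from the H19 transcript, and miR-29c* is the other strand of a miR-29 hairpin. miR-378 is named only.
rno-miR-1224: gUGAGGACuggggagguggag
rno-miR-675*: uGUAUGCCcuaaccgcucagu
rno-miR-29c*: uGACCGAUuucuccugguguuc

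For each miRNA the authors' array tables give a total signal intensity, its error and a flag for detection. Between 177 and 220 miRNAs were detected per array, and 432 of the 677 on no array. To make arrays comparable, each signal was divided by its array's 75th percentile over miRNAs that all arrays detected (864 to 1911 signal units) and multiplied by a factor common to all arrays. These values are called scaled signals here, and each miRNA is compared with itself across rats, apart from the sums over marker lists, in which the brightest probes weigh most.

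The arrays carried the miRNAs of skeletal muscle. The 5 muscle fibre markers that could be matched by name, miR-1, miR-133a, miR-133b, miR-206 and miR-499, were seen in every rat. 1 library stood apart from this pattern. In the high fat rat H3, miR-499, which is encoded in a slow myosin gene, had a scaled signal of 366, against 4553 to 9137 in the other 11 rats, and miR-206 had 9354, against 30841 to 60699. miR-1 went the other way, at 136123 in H3 and 51591 to 106415 in the others, and it and miR-133b made up most of H3's sum over the 5 markers. That sum was 245085 in H3 and 148101 to 289710 in the others. The 75th percentile of its array, 1311, lay within the range of the others. These levels leave it in doubt whether the tissue label holds for H3, which no other value here settles. The diet difference of miR-204 and the main correlations are therefore given with and without this rat.

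miR-204 was detected in every rat, and its mean was lower in the high fat rats. Scaled signals of the control rats were 101 in C60, 118 in A75, 124 in H10, 132 in C73, 159 in A110 and 213 in A89. In the high fat rats it was 32.6 in H3, 67.4 in A37, 71.7 in H20, 88.3 in C51, 117 in H1 and 145 in C25. The groups overlapped: 4 high fat rats lay below the lowest control rat, and 2 control rats lay above the highest high fat rat. The scanner's error for a single array was 7.84% to 13.0% of the signal (median 8.86%), which leaves out the variation of extraction, labelling and hybridisation.

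**Figure D1:**
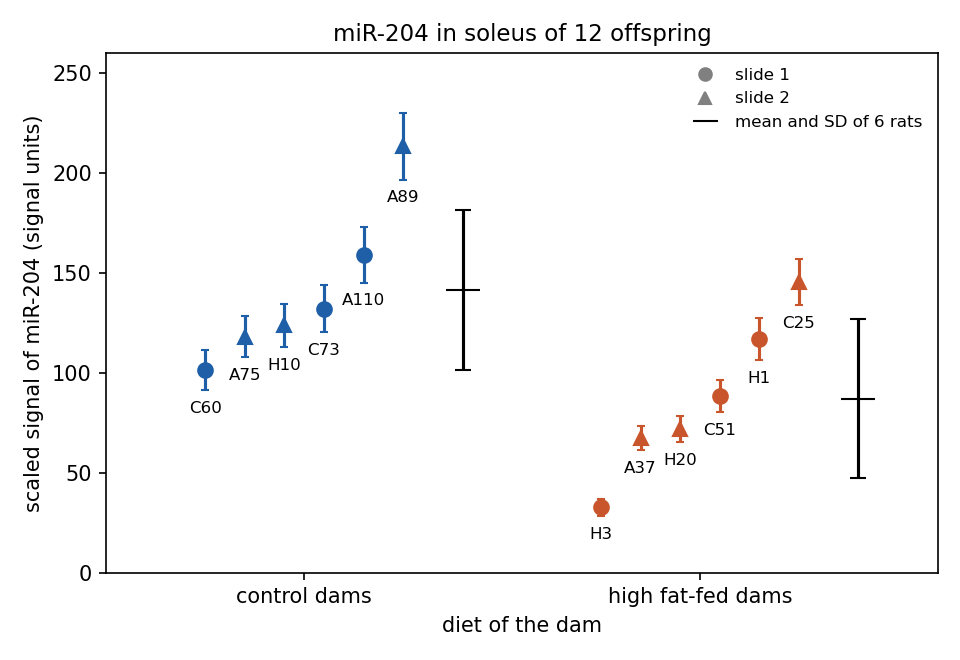
Scaled signal of miR-204 in signal units (vertical axis, from 0) for each rat by the diet of its dam, with circles for slide 1 and triangles for slide 2; bars on points are the scanner's error, and the black marks are the mean and SD of 6 rats. The control rats run from 101 to 213 and the high fat rats from 32.6 to 145, with H3 lowest.

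The mean scaled signal of miR-204 was 141 ± 40.1 (SD, n = 6) in control rats and 87.0 ± 39.7 (SD, n = 6) in high fat rats. The difference, high fat minus control, was -0.80 on the log2 scale with a standard error of 0.32. Without H3 the high fat mean was 97.9 ± 32.8 (SD, n = 5) and the log2 difference -0.55, with a standard error of 0.24. The log2 difference was negative on both slides, at -0.89 on slide 1 and -0.72 on slide 2, each from 3 rats against 3. In whole muscle, fewer cells of a type and less RNA per cell cannot be told apart.

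The size of this difference must be read against a general shift of the scaled signals. The median log2 difference of all 193 miRNAs tested was -0.17, and 154 of them were lower in high fat rats. Without any scaling the median was 0.14, and miR-204 was at -0.49 (standard error 0.40). Under quantile normalization the median was -0.00086 and miR-204 was at -0.59. The gap between miR-204 and that median was -0.63 as scaled here and -0.63 without scaling. These 2 are alike by construction, because dividing an array by 1 factor moves all its miRNAs alike. Under quantile normalization, which can change the gap, it was -0.59.

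**Figure D2:**
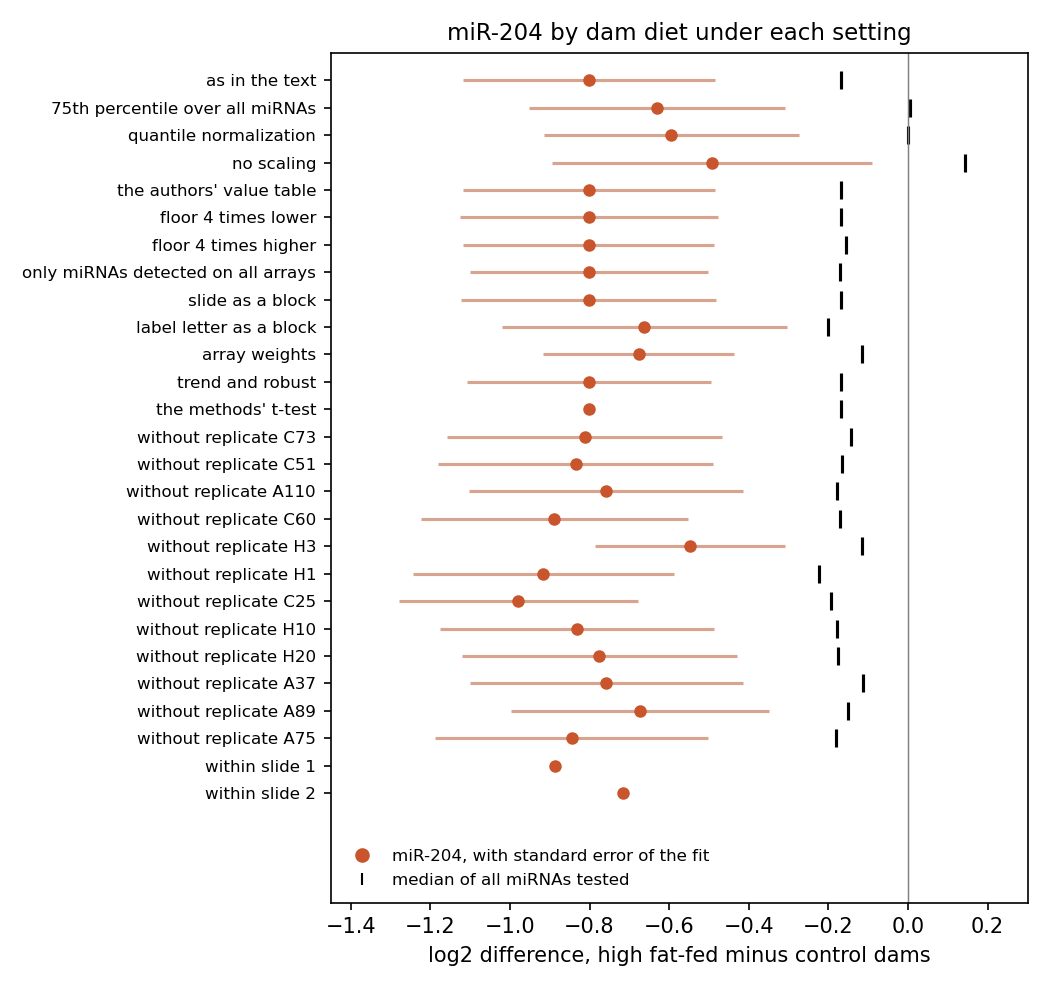
Log2 difference of miR-204 between offspring of high fat-fed and control dams (horizontal axis) under each setting, with the standard error of the fit where there is one, and the median of all miRNAs tested as a vertical tick. Every point lies below 0, from -0.98 without rat C25 to -0.49 without scaling, and the value without H3 is -0.55.

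Across all miRNAs, 0 of the 193 tested (0%) passed an adjusted p of 0.05 in limma, the smallest adjusted p being 0.685, so no named miRNA can be called changed by the dam's diet. At an unadjusted p under 0.05, limma gave 2 of 193 (1.04%), both lower in high fat rats. The methods' t-test gave 2 at that threshold and 0 after adjustment. miR-204 is 1 of the 2 and was chosen partly for that, so its membership is not a result.

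miR-211, which shares the seed and all but 1 base of miR-204, was detected on 0 of the 12 arrays and is listed at 0.1, the value the scanner software gives to undetected miRNAs. This held in control rat A89 too, where miR-204 had its highest listed signal, 262. No level, fold or test can be given for miR-211, and a level under the array's limit of detection is possible.

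The star strands were rarely seen. miR-204* was undetected on all 12 arrays. miR-211* was detected in 1 of 6 control rats and 3 of 6 high fat rats, a difference that did not pass the test (Fisher's exact test, two-sided, p = 0.545). Its listed signal was 9.78 in control rat A89, and 10.1 in C25, 27.1 in H20 and 87.4 in H3 among the high fat rats. The brightest of these was again the rat that stood apart. Leaving out any 1 of H3, C25 and H20 left miR-211* detected in 1 more high fat than control rat. Its main strand was detected in none of these 4 rats.

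miR-204 varied more between rats than most miRNAs did. The SD of its log2 scaled signal over all 12 rats was 0.70, the 10th highest of 162 miRNAs detected on all arrays, whose median SD was 0.34. Without H3 the SD was 0.49, the 16th highest, against a median of 0.28. Among control rats alone it was 0.38, the 38th highest, and among high fat rats 0.75, the 13th highest. The SD of the high fat rats without H3 was 0.47 (n = 5). In H3, log2 scaled miR-204 minus the mean of the other 11 rats was -1.82. Only 4 of the 161 other miRNAs lay further below their own mean in H3, and the median of the others was -0.27.

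The level of miR-204 was set beside the brightness of its array, a measure not used in choosing it. Over the 12 rats, log2 scaled miR-204 and log2 of the array's 75th percentile had a Pearson r of -0.0079 (permutation test, two-sided, p = 0.981, adjusted over 2 relations 0.981). Spearman's rho was 0.035 (permutation p = 0.921, adjusted 0.981). Without C60 and A37, the 2 arrays whose brightness lay farthest from the median, r was 0.16. Without H3 r was -0.062, and within the slides it was -0.18 and -0.17. Both variables share the 75th percentile, which divides the scaled signal, so this r and its p do not separate the level of miR-204 from brightness. With unscaled signals, which also carry the brightness of the array, r was 0.42.

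Most other miRNAs rose and fell weakly with miR-204 across the rats. The median Pearson r of the 161 others with miR-204 was 0.40 over 12 rats, 126 of them were positive, 13 were above 0.8 and 4 were below -0.5. All points share the scaling of their array, and 1 rat carried much of the pattern, since without H3 the median r was 0.27, with 8 above 0.8 and 1 below -0.5. Centring each diet group left a median of 0.26 and centring each slide 0.47. It was 0.026 among the 6 control rats, 84 of 161 being positive, and 0.43 among the 6 high fat rats, where H3 is included. Without scaling the median was 0.55 and under quantile normalization 0.029, so the general level of these correlations differed between scalings. The correlations of single miRNAs are descriptions of these 12 rats against that background.

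**Figure D3:**
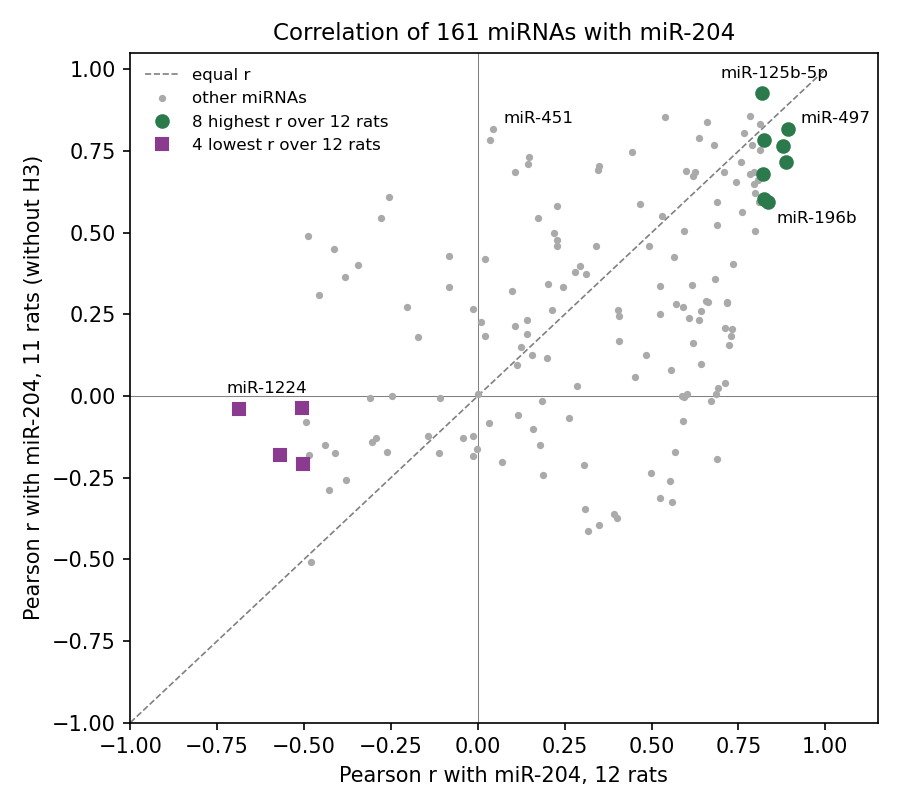
Pearson r of each of 161 miRNAs with miR-204 over all 12 rats (horizontal axis) and over 11 rats without H3 (vertical axis), with the 8 highest and 4 lowest over 12 rats marked. The 4 lowest lie at -0.69 to -0.50 with all rats and at -0.21 to -0.037 without H3, and miR-451 moves from 0.042 to 0.82.

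miR-497 and miR-195, with their shared seed and neighbouring hairpins shown above, had the highest Pearson r with miR-204 over all 12 rats, though not by Spearman's rho or without H3, where miR-125b-5p came before both. The scaled signal of miR-497 was lowest at 2543, in the middle at 3006 and highest at 3427 in control rats, and 1620, 2225 and 3375 in high fat rats. miR-195 ran from 4388 through a median of 4886 to 5548 in control rats, and from 2228 through 4305 to 5428 in high fat rats. In both, the groups overlapped and H3 had the lowest value. The Pearson r with miR-204 was 0.89 for miR-497 (Spearman's rho 0.78) and 0.89 for miR-195 (rho 0.76). Without H3 it was 0.82 and 0.72. Without both H3 and A89, the 2 rats farthest from the median of miR-204, it was 0.86 and 0.82. Centred on the slides the values were 0.94 and 0.91. Within the control rats alone they were 0.53 and 0.44, and within the high fat rats 0.93 and 0.95. Their log2 differences by diet were -0.32 (standard error 0.19) and -0.30 (standard error 0.20), smaller in size than that of miR-204. Both include H3 and would be smaller still without it. The other high fat rats ran from 1937 to 3375 for miR-497 and from 3702 to 5428 for miR-195.

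let-7a and let-7c, the 5th and 7th highest in r, are near-identical in sequence. The scaled signal of let-7a was 9777 at the lowest, 11093 in the middle and 12369 at the highest in control rats, and 6695, 10268 and 12132 in high fat rats. let-7c ran from 8400 through 10076 to 11366 in control rats and from 5720 through 8485 to 12043 in high fat rats. The groups overlapped, and the lowest rat was H3 for both. Their r with miR-204 was 0.82 and 0.82 (rho 0.59 and 0.65), and 0.60 and 0.68 without H3. Within the control rats r was 0.060 and 0.25, and within the high fat rats 0.92 and 0.87, a contrast between the groups that was not tested. Under quantile normalization r was 0.29 for let-7a and 0.48 for let-7c. let-7b came next after the 8 chosen, with an r of 0.817 against 0.818 for miR-125b-5p, the last one chosen.

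**Figure D4:**
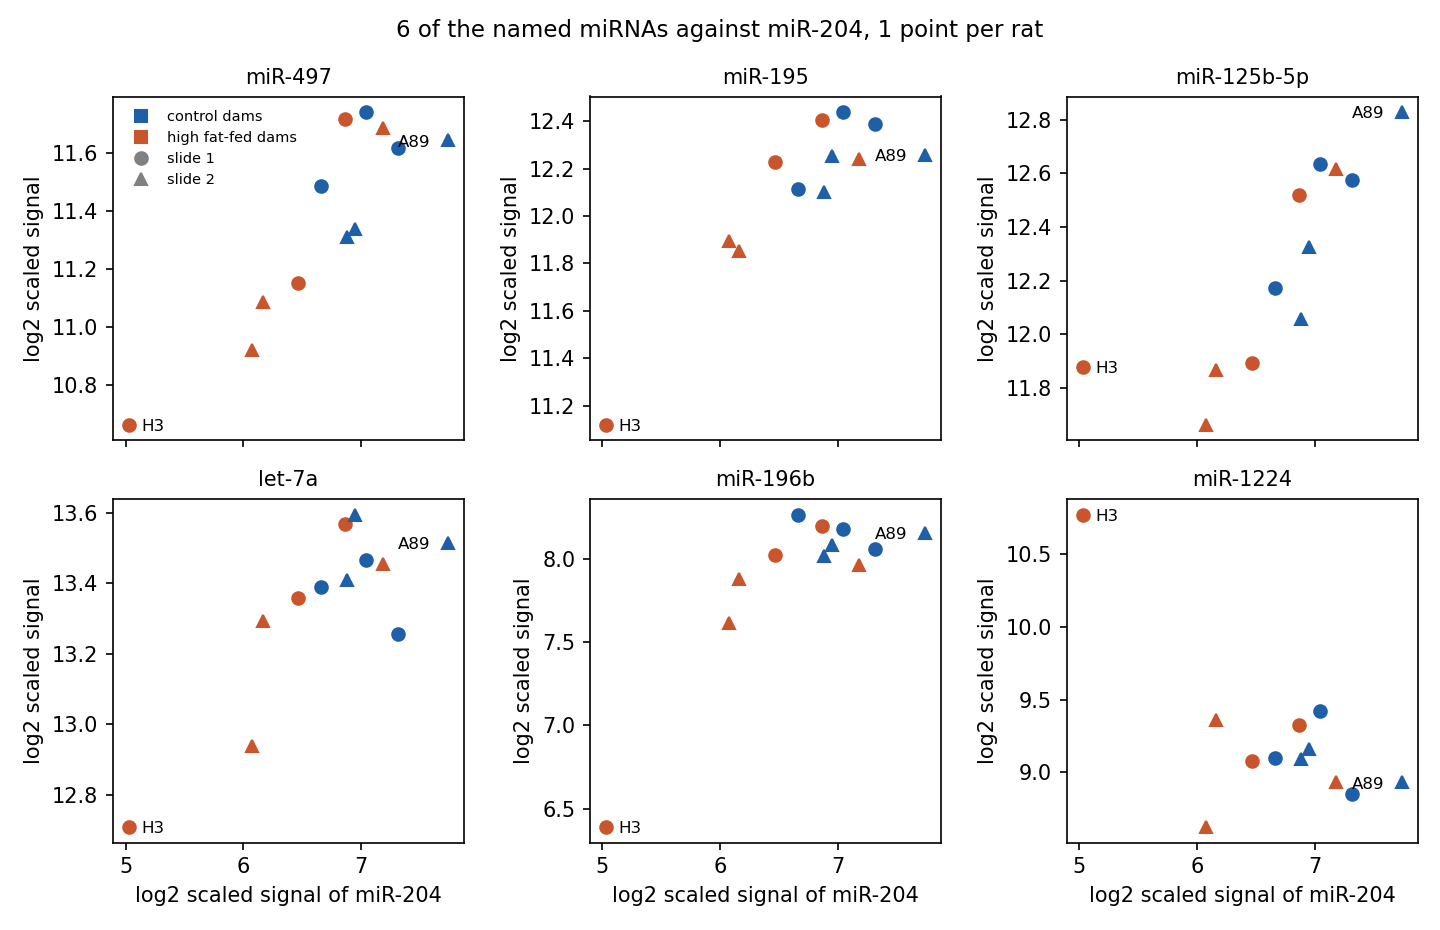
Log2 scaled signal of 6 named miRNAs (vertical axes, each on its own scale) against that of miR-204 (horizontal axis), 1 point per rat, coloured by the dam's diet, with circles for slide 1 and triangles for slide 2. H3 lies at the far left of every panel, and the 11 other rats still rise together for miR-497 (r 0.82) and miR-125b-5p (r 0.93) while r for miR-1224 is -0.041.

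miR-125b-5p differed from the others in that H3 lowered its correlation. Its scaled signal was 4261, 5620 and 7271 (lowest, median, highest) in control rats and 3244, 3783 and 6271 in high fat rats, with H3 at 3763, inside the range of its group. Its r was 0.82 with all rats (rho 0.92), 0.93 without H3 and 0.91 without H3 and A89. It was 0.86 within the control rats and 0.73 within the high fat rats. Under quantile normalization it was 0.36, its lowest value in any setting tried.

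miR-152 ran from 139 through 177 to 265 in control rats and from 109 through 141 to 225 in high fat rats, with an r of 0.82 (rho 0.82) and 0.78 without H3. It was 0.67 without both H3 and A89, 0.81 within control rats and 0.87 within high fat rats. miR-140* ran from 242 through 283 to 359 in control rats and from 153 through 224 to 371 in high fat rats, with an r of 0.88 (rho 0.85), the 3rd highest. It was 0.76 without H3, 0.46 within control rats and 0.95 within high fat rats. miR-140, the other strand of its hairpin, was also among the 8 next highest, with an r of 0.81. The groups overlapped for both miR-152 and miR-140*, and H3 was lowest for each.

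miR-196b, the 4th highest in r, was 259 at the lowest, 278 in the middle and 308 at the highest in control rats. In high fat rats it was 83.9, 243 and 293, the 83.9 being H3 and the lowest of the other 5 being 196. Its r of 0.84 (rho 0.50) rested largely on that rat, with 0.59 without H3 and -0.17 within the control rats.

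At the other end, the 4 miRNAs with the lowest correlation each had their highest signal in H3. miR-1224 had a scaled signal of 1752 in H3 and of 394 to 657 in the other 5 high fat rats, against 461 to 686 in control rats. miR-675* was 83.0 in H3, 30.7 to 72.1 in the other high fat rats and 23.6 to 46.0 in control rats. miR-29c* was 631 in H3, 324 to 539 in the others of its group and 336 to 498 in control rats. miR-378, which is encoded in the gene of a coactivator of mitochondrial metabolism, was 2554 in H3, 1425 to 1895 in the other high fat rats and 1208 to 2403 in control rats. In all 4 the control rats overlapped with the high fat rats.

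The r of these 4 with miR-204 was -0.69 for miR-1224, -0.57 for miR-675*, -0.51 for miR-29c* and -0.50 for miR-378. Without H3 the values were -0.041, -0.18, -0.037 and -0.21, all closer to 0. Without scaling r was -0.48 for miR-1224, -0.39 for miR-675*, -0.12 for miR-29c* and -0.12 for miR-378. When the 75th percentile was taken over all miRNAs, the 4 were at -0.71, -0.36, -0.16 and -0.095. Under quantile normalization they were at -0.93, -0.65, -0.76 and -0.73. Within the control rats, which do not include H3, r was -0.49, -0.71, -0.47 and -0.45. miR-1, a fibre marker, was just outside the 4 with -0.49, and -0.080 without H3.

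**Figure D5:**
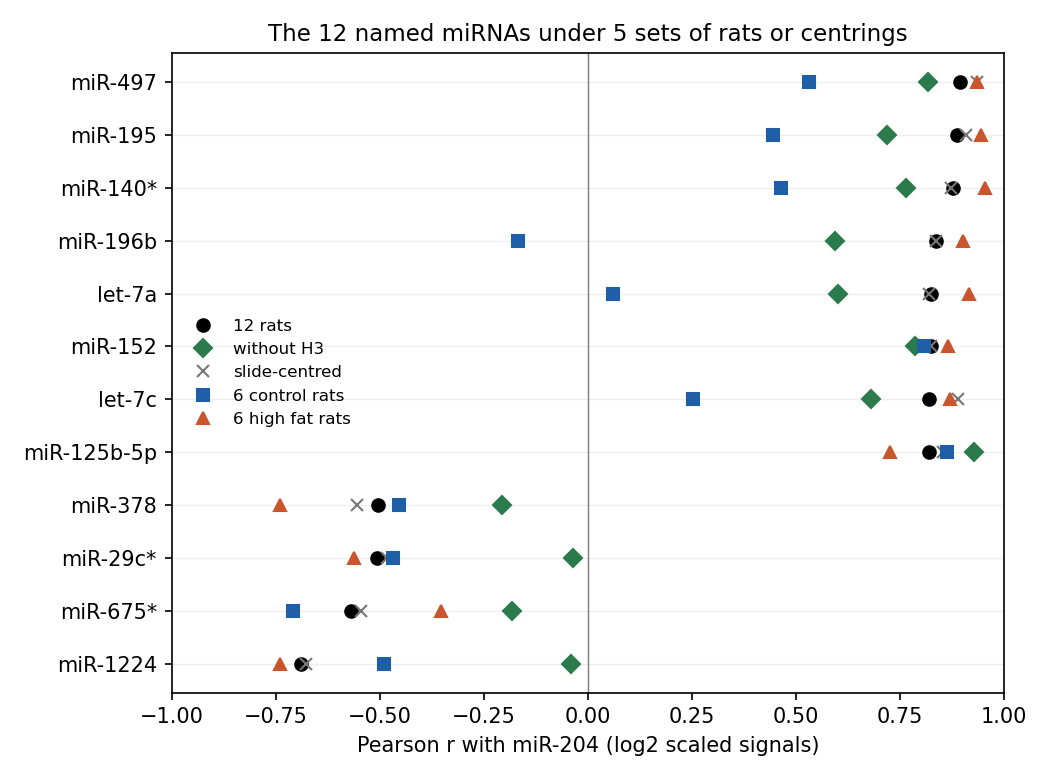
Pearson r with miR-204 (horizontal axis) for the 8 highest and 4 lowest miRNAs over all 12 rats, over 11 rats without H3, after centring each slide, and within the 6 rats of each diet group. In the control rats miR-152 and miR-125b-5p stay at 0.81 and 0.86 while let-7a and miR-196b lie at 0.060 and -0.17.

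Which miRNAs were most like miR-204 depended on H3 and on other choices. When the 8 highest were chosen again over the 11 other rats, 2 of the 8 were shared, miR-125b-5p at 0.93 and miR-497 at 0.82, and of the 4 lowest 0 were shared. With all rats, 3 of the 8 were shared under quantile normalization, 3 on the linear scale and 4 by Spearman's rho, and 1 within the control rats. Leaving out A75 kept 4 of the 8. Of the 4 lowest, the number shared was 1 by Spearman's rho, 1 without A89, 1 when the 75th percentile was taken over all miRNAs and 1 under quantile normalization. The newcomers were miR-374 at 0.86, miR-16 at 0.85, miR-99a at 0.84, miR-199a-3p at 0.83, miR-451 at 0.82 and miR-130a at 0.81. miR-16 carries the name of the seed family of miR-195 and miR-497, and its r was 0.54 with all rats. miR-451, a miRNA of red blood cells, moved from 0.042 to 0.82, its scaled signal being 3054 in H3 and 402 to 2363 in the other rats.

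Markers of other cell types moved with miR-204 to different degrees, and their part in its pattern was not tested. All 3 connective tissue miRNAs (miR-199a-3p, miR-199a-5p and miR-214) had an r of 0.68 to 0.81, with a median of 0.81, and of 0.77 without H3. All 3 also had a lower mean in high fat rats, with a median log2 difference of -0.51 against -0.17 over all 193 miRNAs, and 0 of them passed the test. These differences include H3 and would be smaller in size without it. H3 was the lowest rat for miR-199a-3p (1676, others 1756 to 5116) and miR-199a-5p (312, others 392 to 1368). The summed scaled signal of the 3 was 2755 to 7094 in control rats and 2342 to 7391 in high fat rats, 2342 being H3. The 4 vessel miRNAs (miR-126, miR-126*, miR-143 and miR-145) had a median r of 0.67 with all rats and of 0.10 without H3, where their sum was 4980 in H3, 9205 to 12143 in the other high fat rats and 10332 to 12467 in control rats. The 6 blood miRNAs had a median r of 0.18, and of 0.26 without H3. The red cell miRNAs among them, miR-451 and miR-144, were at 0.82 and 0.73 without H3, and the 4 of white cells at -0.12 to 0.26. The sums of the list were 2304 to 4518 in control and 1939 to 4515 in high fat rats. Over all 161 miRNAs the median r was 0.40, and 0.27 without H3.

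The 5 muscle fibre markers had a median r of -0.30, and of -0.18 without H3, with sums of 165345 to 289710 in control and 148101 to 261037 in high fat rats. miR-499 and miR-206, low in H3, had an r of 0.69 and 0.56 with all rats, of -0.19 and -0.33 without it, and of -0.012 and -0.85 within the control rats.

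Of the 8 nerve and endocrine miRNAs, 4 (miR-124, miR-9*, miR-7b and miR-375) were detected on no array. The 3 detected on all arrays had a median r of 0.62, and of 0.23 without H3, but went both ways. miR-219-5p was at 0.64, miR-338 at 0.62 and miR-7a at -0.48, and without H3 at 0.23, 0.34 and -0.51. The sum over the nerve and endocrine list ran from 309 to 1278 in control and from 160 to 463 in high fat rats, H3 again being lowest. Of the 6 epithelial miRNAs 3 were detected on no array, and 0 were tested. miR-200a and miR-200b were detected in H3 only, at scaled signals of 12.2 and 8.82. Of the 4 sensory miRNAs, miR-184 was on no array, miR-96 was detected in all 6 control and 4 high fat rats, and miR-182 and miR-183 in 1 rat of each group. The summed signal of that list was 12.05 to 268 in control and 0 to 309 in high fat rats, with 0 in H3 and in at least 1 other high fat rat.

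miRNAs known for roles in insulin secretion or glucose handling had correlations with miR-204 on both sides of 0. Of 11 on that list, 10 were tested by limma, 0 passed an adjusted p of 0.05 and 7 had a lower mean in high fat rats, with a median log2 difference of -0.050, against -0.17 over all 193. miR-375, which like miR-204 is known from the beta cell, was detected in no rat. The 9 detected on all arrays had a median r with miR-204 of 0.26, and of -0.068 without H3. miR-143, a miRNA of smooth muscle, had the highest r at 0.73, which was 0.20 without H3 and -0.28 within the control rats. miR-103, a known regulator of insulin sensitivity, came next at 0.53, and 0.55 without H3. miR-378, described above, had the lowest, and miR-223, a myeloid miRNA, had -0.14, and -0.12 without H3.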

How the data were processed

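The authors deposited, for each of the 12 rat arrays, the total signal intensity of each miRNA with its error and a detection flag, as extracted by the scanner software from Cy3-labelled RNA (input 100 ng, array content of miRBase release 16). The software subtracted background and combined spots, its version is not given in the sources used here, and the intensities were not normalized between arrays. The deposited value table of the series held the same intensities, with 0 values differing. The files name no genome build, so coordinates are those of RefSeq's GRCr8 tables. The labels' groups hold 6 rats each, although the study's methods count fewer high fat offspring without saying which, so all arrays were used. Human samples were not analysed here.

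The 22 control rows were left out. Each array was divided by its 75th percentile over the miRNAs detected on all arrays. Scaled signals under 5.17, the median over arrays of the lowest detected signal, were set to that floor before log2. Diets were compared with limma 3.58.1 in R 4.3.3, without covariates. The 193 miRNAs that 6 or more arrays detected were fitted, and their p-values were adjusted together by Benjamini and Hochberg's method. Correlations (scipy 1.17.1, Python 3.11.15) used log2 scaled signals of 12 rats, and brightness 100000 permutations. The scripts were tested on simulated data. The number of arrays limits the precision.

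The members, marker lists and tests were chosen with earlier results of these data known. The miRNAs named were the members and their star strands, the 8 highest and 4 lowest in Pearson r, and the list miRNAs with the highest and lowest r. The miRNAs most like miR-204 without H3, and those next outside a limit, were named after their values were seen. miR-208b, listed as separate arms, and miR-486 were not matched by the rule for list names. Alternatives covered scaling, floor, detection filter, slide or label letter as a block, array weights, variance model, measure of correlation, the methods' t-test and each rat left out. The rat codes are not shared between groups.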

Additional observations from a re-analysis of the deposited data

Results flagged for a closer look

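Among 26 groups of 6 rats, 2 had 1 rat set far apart from the other 5, and both times it was the high fat rat H3. The groups were those of miR-204 and of the 8 highest and 4 lowest in r. The star strands and the other miRNAs of the marker lists were not counted, although H3 also stood apart in some. For miR-499 it had 366, against 5051 to 7994 in the other high fat rats. How often chance sets a rat apart in this way was not tested, and the counted miRNAs were chosen by a correlation that H3 shapes. For miR-196b, H3 had a scaled signal of 83.9 and the other 5 lay between 196 and 293. For miR-1224, H3 had 1752 and the others lay between 394 and 657. These are 1 of the 8 highest and 1 of the 4 lowest correlations with miR-204.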

How the results depend on the processing

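The log2 difference of miR-204 was negative under all 26 alternatives. It ran from -0.89 within slide 1 to -0.49 without scaling, and from -0.98 (without C25) to -0.55 (without H3) with each rat left out, where the scaling of all 12 arrays was kept. It was -0.66 with the label letter as a block. limma called 0 miRNAs at an adjusted p under 0.05 under all 25 alternatives run, the methods' t-test included. The number with an unadjusted p under 0.05 ran from 1 to 12, the 12 with array weights, and from 1 to 15 with each rat left out, the 15 without H1. The median correlation of miR-204 with the others, 0.40, was 0.029 under quantile normalization, 0.55 without scaling, 0.24 as Spearman's rho and 0.026 within the control rats. With each rat left out it was 0.27 (without H3) to 0.44 (without C25). Of the 8 highest and 4 lowest, miR-196b changed sign within the control rats, at -0.17. miR-29c* (0.096) and miR-1224 (0.11) changed sign without both H3 and A89, an alternative chosen after seeing the data. The cause was not tested. The difference in rats with miR-211* was 1 (without H3, C25 or H20) to 3 (without A89). miR-211 and miR-204* were at 0 in each case. The correlation with array brightness lay between -0.16 and 0.15 with each rat left out, and up to 0.42 without scaling. Scaling, floor, blocks, weights, variance model and the methods' t-test do not act on detection flags, so the star strands have no value under them. No paired analysis was possible because the rats' codes are not shared between the groups. In A89 and C25 miR-211* lay near the limit of detection.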
